A study of Mus musculus with 24 samples.

Results

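The immediate early genes Fos, Fosb, Junb, Egr1, Egr2, Egr3, Arc, Nr4a1, Npas4 and Ier2 were looked up by gene symbol in the RNA-Seq expression values of single mouse retinas. Of these 10 genes, 7 were among the 14922 genes of the 1-week table and 9 among the 15920 genes of the 5-week table. Egr3 and Npas4 were followed at 5 weeks only, and Egr2 was not analysed here. The retinas came from male C57BL/6J mice that were 13 to 17 weeks old at the time of the blast. The bTBI mice were anesthetized with ketamine and xylazine and exposed to a 20 PSI blast wave in an enclosed chamber, and the retina of the eye that faced the blast was taken. The sham mice, labelled as controls, were handled alike but received no blast wave. Each timepoint, 1 week (8 days in the labels) and 5 weeks, had 6 bTBI and 6 sham retinas from separate mice, 24 retinas in all. Eyes were placed in RNAlater and each retina was dissected whole, although the labels also carry the cell type retinal ganglion cell (RGC). All 8 rod markers examined were measured in every retina, as were all 11 RGC markers. RNA was extracted with a different kit at each timepoint, so that kit and timepoint cannot be told apart.

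Immediate early genes are transcribed within minutes of a stimulus from transcription factors that are already present in the cell, with no need for new protein synthesis. Calcium entry and kinase signaling activate factors such as CREB and serum response factor at their promoters, and the transcripts are short-lived. In neurons, including those of the retina, they are widely used as marks of recent activity, light exposure, stress and tissue handling.

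Fos, Fosb and Junb encode subunits of the AP-1 transcription factor. Egr1 and Egr3 encode zinc-finger transcription factors, Nr4a1 encodes an orphan nuclear receptor, and Npas4 encodes an activity-dependent transcription factor of neurons. Arc encodes a protein of the postsynaptic side that acts in the removal of AMPA receptors, and Ier2 encodes a nuclear protein of the early growth-factor response. In whole retina, fewer cells of a type and less RNA per cell cannot be told apart.

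The 250 bases upstream of the transcription start are shown for Fos, Fosb, Junb and Nr4a1 because the levels of these genes moved together between retinas at 5 weeks, as described further on. They are RefSeq sequences of build GRCm38.p6, which held promoters of 6 of the 10 genes, and are written 5′ to 3′ on the strand of the gene. Capitals mark TGACG, the core of the site bound by CREB, on either strand, the TATA-box sequence TATAAA, and GCGGGGGCG, the sequence bound by EGR proteins, on either strand. These motifs did not overlap one another in the 4 windows.
Fos: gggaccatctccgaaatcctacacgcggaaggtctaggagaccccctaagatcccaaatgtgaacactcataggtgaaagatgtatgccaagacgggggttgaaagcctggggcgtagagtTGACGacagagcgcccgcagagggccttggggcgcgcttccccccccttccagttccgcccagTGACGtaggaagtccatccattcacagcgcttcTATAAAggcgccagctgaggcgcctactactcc
Fosb: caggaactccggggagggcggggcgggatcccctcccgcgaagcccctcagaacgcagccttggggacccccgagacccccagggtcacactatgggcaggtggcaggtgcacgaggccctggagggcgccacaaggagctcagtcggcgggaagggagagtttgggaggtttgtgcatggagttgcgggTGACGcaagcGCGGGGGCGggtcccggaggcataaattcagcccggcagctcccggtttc
Junb: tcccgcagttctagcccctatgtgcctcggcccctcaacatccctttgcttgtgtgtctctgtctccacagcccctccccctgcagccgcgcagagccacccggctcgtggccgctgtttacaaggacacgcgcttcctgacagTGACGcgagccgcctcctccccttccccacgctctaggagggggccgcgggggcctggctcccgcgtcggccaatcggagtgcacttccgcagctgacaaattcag
Nr4a1: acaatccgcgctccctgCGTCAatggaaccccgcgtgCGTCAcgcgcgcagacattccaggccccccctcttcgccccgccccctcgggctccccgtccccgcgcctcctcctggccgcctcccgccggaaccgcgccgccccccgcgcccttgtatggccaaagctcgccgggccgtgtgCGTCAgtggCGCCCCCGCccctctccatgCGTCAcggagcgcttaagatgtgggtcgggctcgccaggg
The Fos window, chr12:85473640-85473889 on the plus strand, held TGACG at 129 and 66 bases before the start and TATAAA at 33 bases before it. The Fosb window, chr7:19310046-19310295 on the minus strand, held TGACG at 60 bases and GCGGGGGCG at 50 bases before the start. In the GENCODE M21 annotation, which has the same build, the last 6 bases of the Fosb window lie in the first exon of an annotated Fosb transcript. The Junb window, chr8:84978749-84978998 on the minus strand, held TGACG at 106 bases before the start. The Nr4a1 window, chr15:101266596-101266845 on the plus strand, held TGACG 4 times, each on the minus strand, and GCGGGGGCG once. It lies within the Nr4a1 gene of GENCODE M21 but in none of its exons. The Npas4 window, not printed here, also held TGACG, at 179 and 169 bases before the start. All 250 of its bases lie in an annotated Npas4 exon, and the order of retinas of Npas4 differed at 5 weeks. TGACG occurred in 17.8%, TATAAA in 12.4% and GCGGGGGCG in 2.57% of the same windows of all 32851 RefSeq promoters, with each motif, TATAAA included, counted on either strand. The motifs are a description of the letters and were not tested for factor binding.

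Depth, as reads in the genes kept by the authors, was estimated from the step between the values of each retina as 14301989 to 25158638 reads. The step was taken as a single read, which could not be checked because genes with few reads had been left out. Medians were 19210634 reads in bTBI and 20817594 reads in sham retinas at 1 week, and 16990374 reads in bTBI and 21613805 reads in sham retinas at 5 weeks. Levels are given as the deposited values, gene counts that were scaled to CPM. They are not divided by gene length, so levels are compared between retinas and not between genes. Fold changes are on the log2(CPM + 1) scale, which understates the change of genes with low levels. Genes were called at an adjusted p under 0.005, the threshold of the study, with limma, and p values were adjusted by the method of Benjamini and Hochberg across each whole table.

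At 1 week, 0 of the 7 genes passed the test between bTBI and sham retinas, where 2.25% of all genes did (limma). At an unadjusted p under 0.05 the count was 3 of 7, namely Fosb, Junb and Egr1, all with higher means in bTBI retinas, against 17.3% of all genes in either direction and 8.32% of all genes on the higher side. The fold change was above 0 for 6 of the 7 genes, as for 49.9% of all genes, and its median was 0.21 over the 7 genes and -0.00024 over all genes. Some of these genes moved together between retinas at 1 week, as given further on, so that the 7 genes are not 7 separate observations. No gene of the 7 had non-overlapping groups, whereas 1.59% of all genes had every bTBI retina above every sham retina and 2.25% had every bTBI retina below every sham retina.

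Among the AP-1 subunits at 1 week, Fosb ran from 2.69 to 4.12 CPM (median 3.54) in bTBI retinas and from 1.71 to 3.40 CPM (median 2.21) in sham retinas. All 6 bTBI retinas were above the sham median, and 3 of them were above the highest sham retina, replicate 2. For Fosb the log2 fold change came to 0.45 ± 0.12 (SE, adjusted p = 0.0391, limma), which would pass at an adjusted p under 0.05, as 6.08% of all genes did. With each retina left out in turn it was under 0.05 in 2 of 12 fits (without bTBI replicate 2 and without sham replicate 2) and between 0.0527 and 0.0922 in the others. Junb, the partner subunit, ran from 11.4 to 18.9 CPM (median 14.3) in bTBI retinas and from 8.16 to 13.2 CPM (median 9.30) in sham retinas. Again all 6 bTBI retinas were above the sham median and 3 of them above every sham retina. This gave a log2 fold change of 0.47 ± 0.14 (SE, adjusted p = 0.0656, limma), and the adjusted p was under 0.05 in 3 of the 12 fits with a retina left out, with values up to 0.154. Fos itself differed little between the groups, with 13.7 to 34.1 CPM (median 20.04) in bTBI retinas and 11.5 to 37.8 CPM (median 19.8) in sham retinas. The log2 fold change of Fos was 0.07, with a 95% interval of -0.40 to 0.55, and it was -0.07 without sham replicate 5 and 0.26 without sham replicate 2.

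Egr1 at 1 week ran from 17.4 to 34.8 CPM (median 26.5) in bTBI retinas and from 11.4 to 38.8 CPM (median 15.5) in sham retinas. Each bTBI retina was above the sham median, while the highest level of all 12 retinas was in sham replicate 2. For Egr1 the log2 fold change came to 0.51 ± 0.23 (SE, adjusted p = 0.267, limma), which was 0.74 with an adjusted p of 0.0139 without sham replicate 2. With any other retina left out, the adjusted p of Egr1 was between 0.195 and 0.474. Without sham replicate 2 the adjusted p was 0.0109 for Fosb and 0.0451 for Junb (limma), and this was the only 1 of the 12 fits in which Fosb, Junb and Egr1 were all under 0.05.

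Nr4a1 was the only gene of the 7 with a lower mean in bTBI retinas on the log2 scale at 1 week. Its levels ran from 13.8 to 19.1 CPM (median 16.0) in bTBI retinas and from 12.2 to 25.6 CPM (median 19.6) in sham retinas, and no bTBI retina was above the sham median. The log2 fold change of -0.23 (SE 0.13) did not pass the test (adjusted p = 0.416, limma). It was -0.35 without sham replicate 5, the lowest sham retina (adjusted p = 0.0559), -0.15 without sham replicate 2, the highest (adjusted p = 0.629), and -0.15 without bTBI replicates 5 and 6 together (adjusted p = 0.723). Ier2 was at 10.2 to 14.1 CPM (median 13.2) in bTBI retinas and at 8.66 to 15.7 CPM (median 10.2) in sham retinas, a log2 fold change of 0.21 with an adjusted p of 0.413. Arc was at 1.61 to 2.55 CPM in bTBI retinas and at 1.41 to 3.37 CPM in sham retinas, with a log2 fold change of 0.01 and a 95% interval of -0.29 to 0.30.

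**Figure D1:**
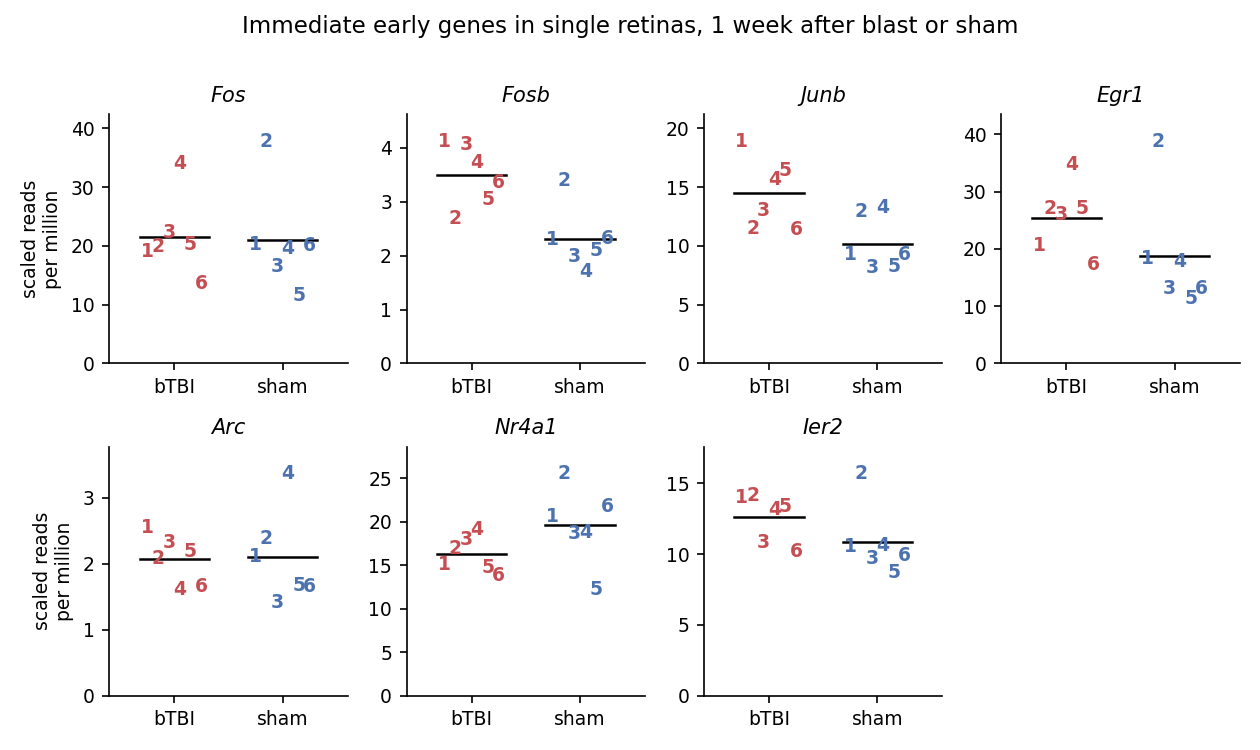
Levels of the 7 immediate early genes at 1 week (y axes, values scaled like CPM, from 0) in bTBI and sham retinas (x axes). Each digit is 1 retina, placed at its value and showing its replicate number, and lines are means of 6. Fosb and Junb each have 3 bTBI retinas above every sham retina, and sham replicate 2 is the highest of 12 retinas for Fos, Egr1, Nr4a1 and Ier2.

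Transcripts of other cells also differed between the groups at 1 week. Of 7 measured microglial markers 5 rose in bTBI retinas, and their summed level was 160.3 to 348 CPM in bTBI retinas and 104 to 157 CPM in sham retinas, with no marker at 0 in any retina. The mean log2 level of these markers was highest in bTBI replicates 3 and 1, at 4.85 and 4.49, which also had the highest 2 levels of Fosb (4.06 and 4.12 CPM). Junb in these 2 retinas was at 13.05 and 18.9 CPM, the fourth highest and the highest of the bTBI group, and Egr1 was at 26.04 and 20.6 CPM, the fourth highest and the fifth. Among sham retinas the microglial level was highest in replicate 4, at 3.60, which had the lowest Fosb (1.71 CPM). The sham retina with the highest Fosb (3.40 CPM), replicate 2, had a microglial level of 3.26. Of 8 Müller glia markers 2 rose, and their mean log2 level was 8.62 to 9.35 in bTBI retinas and 8.23 to 8.49 in sham retinas. This level too was highest in bTBI replicate 3. RGC markers fell in 9 of 11 cases, with summed levels of 872 to 1435 CPM in bTBI retinas and 1606 to 1925 CPM in sham retinas. The part of these cells in the levels of Fosb, Junb and Egr1 was not tested.

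Markers of tissue next to the retina were also high in single retinas of 1 week. Whether they came from carried-over tissue or from the retina itself was not tested. The mean log2 level of 12 lens markers reached 7.37 and 7.76 in bTBI replicates 5 and 6, against 1.41 to 4.73 in sham retinas, and 0 of the 12 passed the test (summed level 137 to 9354 CPM in bTBI retinas and 104 to 968 CPM in sham retinas). The lens-richest retina of each group, bTBI replicate 6 and sham replicate 5 (4.73), was also the lowest of its group for Fos, Egr1, Nr4a1 and Ier2. Replicate 5 of the bTBI group, at 7.37, was above the bTBI median for Egr1 (27.1 against 26.5 CPM). The same held for Fos (20.2 against 20.04 CPM) and Ier2 (13.3 against 13.2 CPM), while Nr4a1 was below the median (14.8 against 16.0 CPM). Over the 12 retinas, the lens markers had a median r of -0.48 with the mean deviation of the immediate early genes, against -0.0055 over all genes. It was -0.37 for 8 bipolar cell markers and -0.34 for 7 cone markers. For 10 pigment epithelium and 5 red cell markers the median r was -0.14 and -0.17. For 9 endothelium and pericyte markers and 3 oligodendrocyte markers it was -0.16 and 0.14. The 3 oligodendrocyte markers measured had a mean log2 level of 9.25 in bTBI replicate 3 and 5.76 in bTBI replicate 4, against 3.67 to 4.09 in sham retinas. Replicate 4 was the bTBI retina with the highest Egr1 (34.8 CPM), Fos (34.1 CPM) and Nr4a1 (19.1 CPM). In the same order of genes, replicate 3 was at 26.04, 22.3 and 17.9 CPM, against bTBI medians of 26.5, 20.04 and 16.0 CPM. The part of these tissues in the levels was not tested.

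The fits were repeated without these retinas. Without bTBI replicates 5 and 6 together, the log2 fold changes were 0.50 for Fosb, 0.49 for Junb and 0.61 for Egr1 (adjusted p = 0.0821, 0.114 and 0.266). Without bTBI replicates 3 and 4 together they were 0.39, 0.46 and 0.38 (adjusted p = 0.193, 0.184 and 0.634). Without all 4 of these retinas, which left 2 bTBI retinas, they were 0.41, 0.52 and 0.44 (adjusted p = 0.401, 0.322 and 0.620). Leaving out replicates 3 and 4, or all 4 retinas, was added after the values had been seen.

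At 5 weeks, 0 of the 9 genes passed the test between bTBI and sham retinas, where 0.835% of all genes did (limma). The count at an unadjusted p under 0.05 was also 0 of 9, against 10.9% of all genes. The fold change was above 0 for 9 of 9 genes, as for 50.6% of all genes, and its median was 0.25 over the 9 genes and 0.0012 over all genes. These genes moved together between retinas, so that 9 signs are not 9 separate observations. No gene had non-overlapping groups, and 0.239% of all genes had every bTBI retina above and 1.75% every bTBI retina below every sham retina.

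Egr1 had the widest range. It was at 101, 132, 104, 51.0, 8.25 and 79.3 CPM in bTBI replicates 1 to 6, against 17.4, 14.0, 79.8, 7.29, 16.0 and 130 CPM in sham replicates 1 to 6. In 5 of the 12 retinas, namely bTBI replicate 5 and sham replicates 1, 2, 4 and 5, Egr1 was at 17.4 CPM or less, and in the other 7 it was at 51.0 CPM or more. The gap between the fifth and the sixth retina in order of level was 2.93-fold. The bTBI group thus had 5 of its 6 retinas in the upper range and the sham group 2 of its 6. In limma the log2 fold change of Egr1 came to 1.18 ± 0.59 (SE, adjusted p = 0.489), with a 95% interval of -0.05 to 2.41. It was 1.73 without bTBI replicate 5 and 0.84 without sham replicate 4.

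Fos showed the same 5 retinas at the bottom. It was at 45.5, 54.1, 47.2, 48.4, 10.2 and 31.1 CPM in bTBI replicates 1 to 6, against 16.3, 14.0, 59.0, 10.03, 12.4 and 52.6 CPM in sham replicates 1 to 6. The gap between the fifth and the sixth retina was 1.91-fold. Between the groups Fos differed by 0.69 ± 0.39 on the log2 scale (SE, adjusted p = 0.563, limma). Nr4a1 was at 50.1, 69.1, 50.1, 55.6, 17.7 and 34.0 CPM in bTBI replicates 1 to 6, against 19.0, 25.6, 75.1, 20.3, 17.6 and 70.4 CPM in sham replicates 1 to 6. The log2 fold change of Nr4a1 was 0.43 (adjusted p = 0.724), against -0.23 at 1 week.

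**Figure D2:**
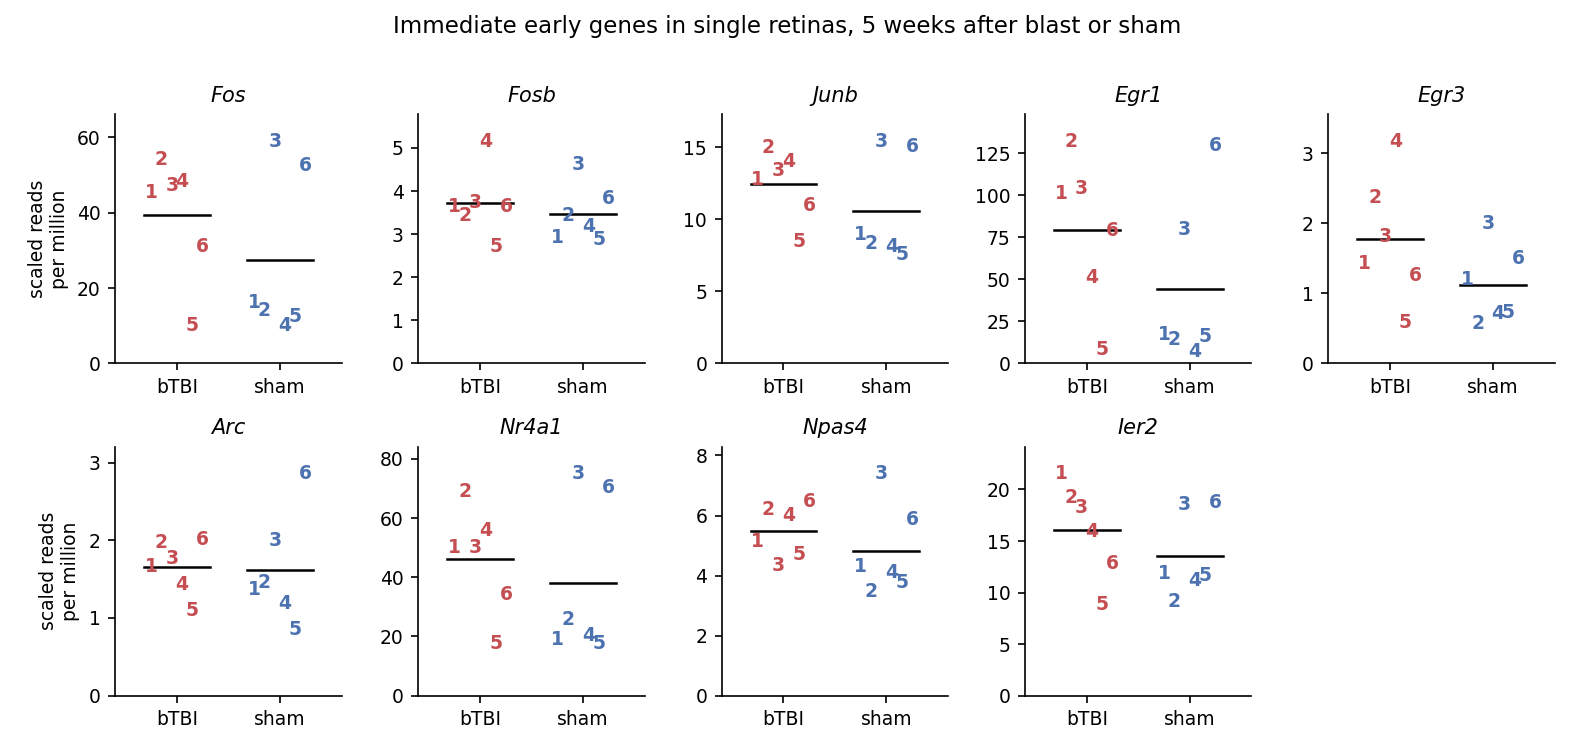
Levels of the 9 immediate early genes at 5 weeks (y axes, values scaled like CPM, from 0) in bTBI and sham retinas (x axes). Each digit is 1 retina, placed at its value and showing its replicate number, and lines are means of 6. bTBI replicate 5 and sham replicates 1, 2, 4 and 5 are the 5 lowest retinas for Egr1, at 7.29 to 17.4, and for Fos, at 10.03 to 16.3.

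The remaining genes had smaller ranges at 5 weeks. Junb, which forms AP-1 together with Fos, was at 8.45 to 14.99 CPM (median 13.1) in bTBI retinas and at 7.59 to 15.4 CPM (median 8.62) in sham retinas, with a log2 fold change of 0.25. Fosb was at 2.71 to 5.16 CPM (median 3.64) in bTBI retinas and at 2.87 to 4.62 CPM (median 3.30) in sham retinas, with a log2 fold change of 0.07. Egr3, the relative of Egr1, was at 0.580 to 3.17 CPM (median 1.62) in bTBI retinas and at 0.571 to 1.996 CPM (median 0.960) in sham retinas, with a log2 fold change of 0.36. The groups overlapped in each of these 3 genes.

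Ier2 at 5 weeks was at 8.83 to 21.6 CPM (median 17.1) in bTBI retinas and at 9.14 to 18.8 CPM (median 11.8) in sham retinas. Npas4, which in neurons follows calcium entry, was at 4.35 to 6.45 CPM (median 5.56) in bTBI retinas and at 3.48 to 7.40 CPM (median 4.204) in sham retinas. Arc was at 1.10 to 2.01 CPM (median 1.71) in bTBI retinas and at 0.857 to 2.86 CPM (median 1.41) in sham retinas. The log2 fold changes were 0.23 for Ier2, 0.18 for Npas4 and 0.05 for Arc. For Npas4 all 6 bTBI retinas were above the sham median, while the highest retina was sham replicate 3.

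**Figure D3:**
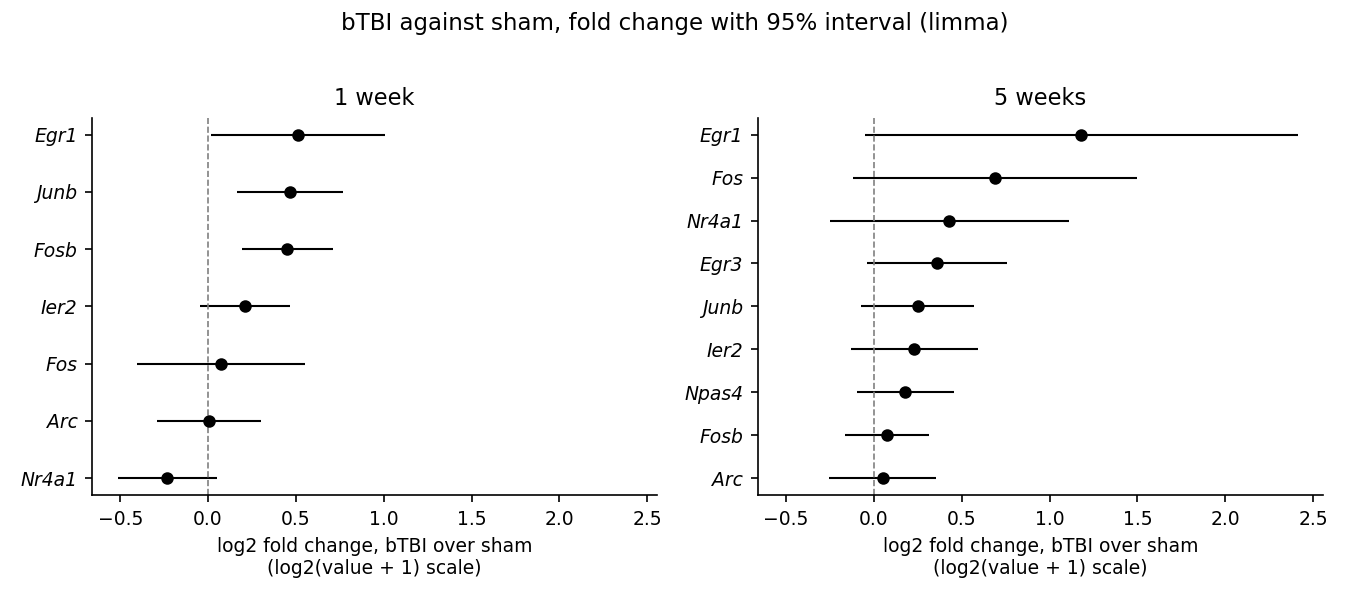
Log2 fold change of bTBI over sham (x axes, log2(value + 1) scale) for each gene (y axes) at 1 week and 5 weeks. Points are limma estimates from 6 retinas a group and bars are 95% intervals. At 1 week the intervals of Egr1, Junb and Fosb lie above 0, and at 5 weeks all 9 intervals include 0, the widest being that of Egr1 from -0.05 to 2.41.

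To compare the bTBI effects between the timepoints, their difference was tested with the 24 retinas together on the 14455 genes that both tables share. Of these genes 15 (0.104%) were called, and none of the 7 immediate early genes was among them (limma). At an unadjusted p under 0.05 the count was 1 of 7, against 8.5% of all genes. That gene was Fosb, with a log2 effect of 0.45 at 1 week and 0.07 at 5 weeks, a difference of 0.38 (95% interval 0.02 to 0.73, adjusted p = 0.550). The differences of Fos, Nr4a1 and Egr1, 1 week minus 5 weeks, were -0.62, -0.66 and -0.67 with adjusted p values of 0.846, 0.753 and 0.897.

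The spread between retinas of the same group was larger for some of these genes than for other genes of similar level. It was measured as the residual standard deviation on the log2 scale divided by the value that limma's trend gives for genes of that level, so that 1 is usual spread. At 5 weeks this ratio was 17.3 for Egr1, the highest of all 15920 genes, 9.88 for Fos (rank 7) and 9.22 for Nr4a1 (rank 10), against a median of 0.988 and a 99th percentile of 2.49 over all genes. Ier2 had a ratio of 3.34, Junb of 2.66, Egr3 of 2.04, Npas4 of 1.68, Arc of 1.44 and Fosb of 1.22.

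At 1 week the ratio was 3.69 for Egr1 and 3.52 for Fos, at ranks 125 and 146 of 14922 genes. It was 1.91 for Nr4a1, 1.81 for Junb, 1.48 for Ier2, 1.16 for Arc and 1.02 for Fosb, against a median of 1.02 over all genes. Fosb, which had the lowest p of the 7 genes at 1 week, was thus the gene whose spread was closest to the usual. The spread was present in both groups. The highest retina exceeded the lowest by 16.0-fold in bTBI and 17.8-fold in sham retinas for Egr1 at 5 weeks, and by 2.002-fold in bTBI and 3.40-fold in sham retinas at 1 week.

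**Figure D4:**
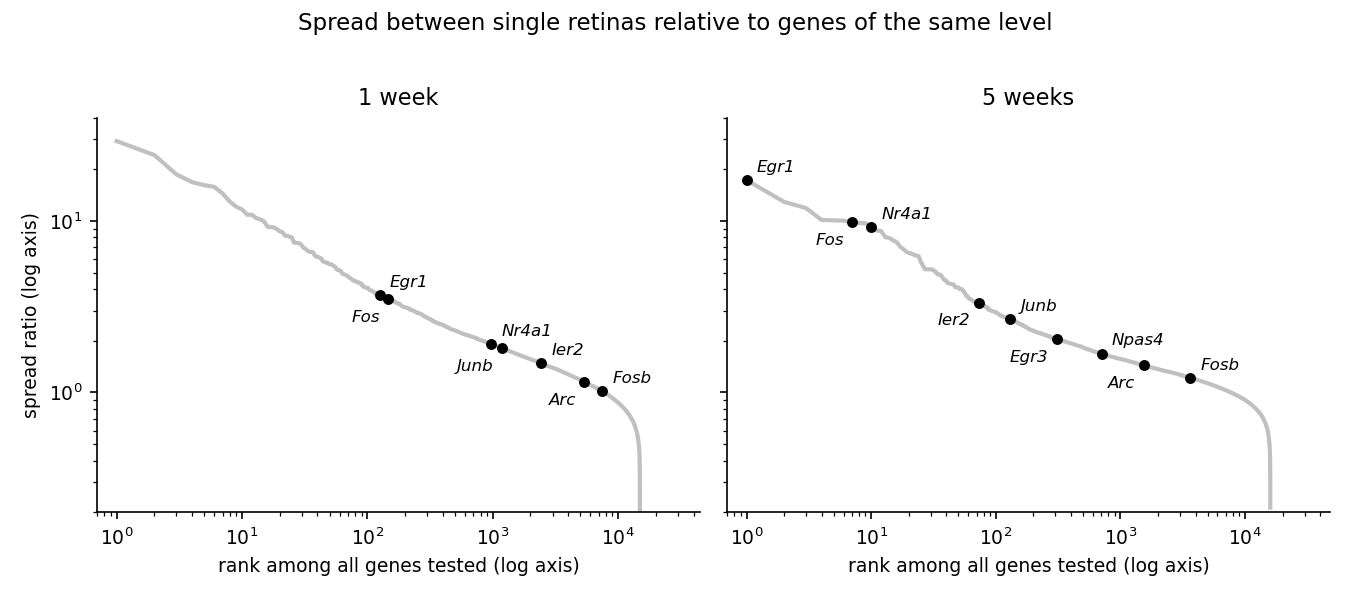
Spread ratio (y axes, log scale) against its rank among all genes (x axes, log scale) at 1 week and 5 weeks. Grey lines are all genes and black points the immediate early genes. At 5 weeks Egr1 is at rank 1 with a ratio of 17.3, followed by Fos at rank 7 and Nr4a1 at rank 10, and at 1 week Egr1 is at rank 125.

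The order of the retinas was largely shared between the genes at 5 weeks. The 5 lowest retinas of Egr1 were also the 5 lowest of Fos, Fosb, Junb, Egr3, Nr4a1 and Ier2, 7 of the 9 genes with Egr1 itself included. This held for 122 of the 15920 genes, 0.766% of all genes, a count that was added after the values had been seen. The gap above the fifth retina was small in some genes (1.00-fold in Fosb and 1.05-fold in Egr3) and larger in Junb at 1.23-fold and Nr4a1 at 1.33-fold. In Arc and Npas4 the order differed, and bTBI replicate 4 was among the 5 lowest of Arc and bTBI replicate 3 among the 5 lowest of Npas4. Since the retinas formed separate ranges of Egr1 and Fos, an r over all 12 mostly sets these ranges apart, and none is given for 5 weeks.

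**Figure D5:**
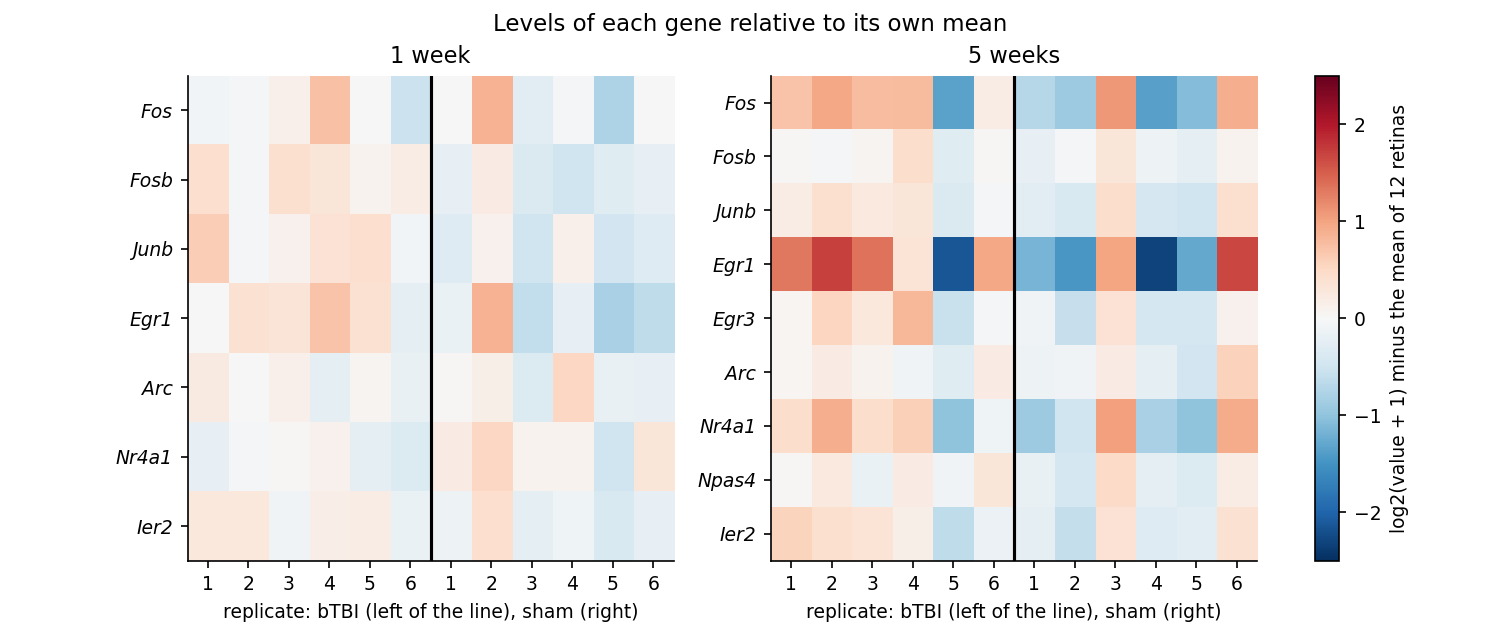
Level of each gene (rows) in each retina (columns, replicates 1 to 6, bTBI left of the black line and sham right of it) at 1 week and 5 weeks, as log2(value + 1) minus the mean of the 12 retinas. Red is above and blue below the mean. At 5 weeks bTBI replicate 5 and sham replicates 1, 2, 4 and 5 are blue for Egr1, Fos and Nr4a1, and at 1 week sham replicate 2 is red in all 7 genes.

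At 1 week no gene of the 7 had a gap as wide as those of Egr1 (2.93-fold) and Fos (1.91-fold) at 5 weeks. The widest was 1.53-fold in Fos, with only bTBI replicate 4 and sham replicate 2 above it. The relation to Fos at 1 week was measured over the 12 retinas, each as its deviation from the mean of its group. Pearson's r with Fos was 0.91 for Egr1 (exact permutation within groups, two-sided, p = 0.000183, adjusted p = 0.000936) and 0.89 for Nr4a1 (exact permutation p = 0.000768, adjusted p = 0.00215). Spearman's rho was 0.76 for Egr1 (exact permutation p = 0.00730, adjusted p = 0.0117) and 0.92 for Nr4a1 (exact permutation p = 0.000145, adjusted p = 0.000675). Without the 2 retinas farthest from the median of Fos, sham replicates 2 and 5, r was 0.83 for Egr1 and 0.84 for Nr4a1. This kept bTBI replicate 4, the highest bTBI retina for Fos, Egr1 and Nr4a1, so that r may still rest on that retina.

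Ier2 had an r of 0.77 (exact permutation p = 0.0136, adjusted p = 0.0190) but a rho of 0.44 (exact permutation p = 0.169, adjusted p = 0.182), and r was 0.42 without sham replicates 2 and 5, so that the relation rests on those retinas. The r was 0.57 for Fosb (exact permutation p = 0.0838, adjusted p = 0.0902), 0.56 for Junb (exact permutation p = 0.0741, adjusted p = 0.0865) and 0.24 for Arc (exact permutation p = 0.518, adjusted p = 0.518). Their rho was 0.51 for Fosb (exact permutation p = 0.108, adjusted p = 0.137), 0.46 for Junb (exact permutation p = 0.143, adjusted p = 0.167) and 0.28 for Arc (exact permutation p = 0.409, adjusted p = 0.409). Without the same 2 retinas r was 0.25 for Fosb, 0.35 for Junb and 0.01 for Arc. Adjustment was over 14 relations, 6 at 1 week and 8 at 5 weeks. The retinas at the ends of the range were sham replicate 2, the highest for Fos, Egr1, Nr4a1 and Ier2, and sham replicate 5, the lowest for the same 4 genes.

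Markers of neighbouring tissue, red cell markers and depth were set beside the order of the retinas at 5 weeks. The mean log2 level of the 12 lens markers was 1.13, 1.73, 1.80, 2.005, 2.36 and 2.78 in bTBI replicates 1, 2, 3, 4, 5 and 6, against 0.78, 0.98, 3.01, 2.51, 2.73 and 1.74 in sham replicates 1 to 6. Of the 5 retinas with the lowest Egr1, sham replicates 1 and 2 had the lowest lens levels of all 12 retinas and sham replicates 4 and 5 were among the 4 highest. The 3 oligodendrocyte markers were between 4.19 and 4.37 in bTBI retinas and between 4.17 and 4.40 in sham retinas on the same scale. The 10 pigment epithelium markers were between 6.35 and 6.87 in bTBI retinas and between 6.32 and 7.09 in sham retinas. The 3 red cell markers measured were between 2.08 and 2.68 in bTBI retinas and between 1.84 and 2.44 in sham retinas. Their lowest levels of all 12 retinas, 1.84 and 1.97, were in sham replicates 3 and 6, where Egr1 was at 79.8 and 130 CPM. Their highest level, 2.68, was in bTBI replicate 3, where Egr1 was at 104 CPM. No marker of these lists passed the test between the groups at 5 weeks. Depth was 15521745 reads in bTBI replicate 5, between 15905768 and 23838444 reads in the other bTBI retinas, and 16847387, 19237770, 23787494, 21300453, 23312495 and 21927157 reads in sham replicates 1 to 6. The time of day, the order of dissection and the interval between death and RNAlater for each retina are not given in the sources used here, and their part in the spread was not tested.

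Other genes of the response were read from lists. Of 36 further immediate early genes measured at 1 week, 2 rose and none fell. These were Atf3, a stress-induced transcription factor of the CREB family, at 16.0 ± 4.28 CPM in bTBI retinas and 6.56 ± 1.56 CPM in sham retinas (SD, n = 6 each; log2 fold change 1.16, adjusted p = 0.000473, limma), and Cebpd, a transcription factor of inflammatory signaling, at 13.8 ± 4.96 CPM in bTBI retinas and 5.11 ± 0.855 CPM in sham retinas (log2 fold change 1.22, adjusted p = 0.000970, limma). Of the 35 measured at 5 weeks none passed, and the lowest p values were those of Mcl1, an anti-apoptotic gene, which differed by 0.11 on the log2 scale (adjusted p = 0.360), and Atf3, which differed by 0.22 (adjusted p = 0.448, limma). The median fold change of this list was 0.08 at 1 week and 0.05 at 5 weeks.

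Feedback inhibitors of the response, such as phosphatases of the MAP kinases and RNA-destabilizing proteins, had 0 of 19 genes past the test at each timepoint (limma). At 1 week the lowest p values were those of Socs3, an inhibitor of cytokine signaling, which differed by 0.80 on the log2 scale (adjusted p = 0.00987), and Zfp36, which promotes mRNA decay and had 0.36 (adjusted p = 0.0675). At 5 weeks they were those of Spred2, an inhibitor of Ras signaling, with -0.27 (adjusted p = 0.0329), and Dusp1, a phosphatase of MAP kinases, with 0.48 (adjusted p = 0.453). Among 18 late response and activity effector genes, 2 fell at each timepoint and none rose, and they were Mmp9, a matrix protease, and Nrn1, a neurite growth factor that RGCs express. Nrn1 was at 20.8 ± 4.198 CPM in bTBI retinas and 33.2 ± 2.88 CPM in sham retinas at 1 week, and at 13.6 ± 2.76 CPM in bTBI retinas and 21.5 ± 1.80 CPM in sham retinas at 5 weeks (SD, n = 6 each). The log2 fold change of Nrn1 was -0.67 at 1 week and -0.65 at 5 weeks, and that of Mmp9 was -0.53 and -0.34. All 11 RGC markers also fell at 5 weeks, with summed levels of 489 to 748 CPM in bTBI retinas and 904 to 990.2 CPM in sham retinas, and their part in the levels of Nrn1 was not tested.

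Of 27 upstream kinases and transcription factors, 0 passed at each timepoint (limma). The lowest p values were those of Elk3 and Rps6ka3 at 1 week, with log2 fold changes of 0.32 and 0.17, and of Camk2a and Mapk3 at 5 weeks, with -0.18 and -0.10. Elk3 is an ETS transcription factor and the other 3 are kinases.

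The genes whose levels deviated most like the mean of the immediate early genes were named as a description over the 12 retinas of a timepoint, which share their libraries. At 5 weeks, in order of r, they were Dusp1, Cdkn2aip, Amotl2, Gm42463 and Zfp87, and the values of r are left out because of the separate ranges. The order of these genes rests on the same r and so mostly on those ranges. An r above 0.7 was found in 2.53% of all genes at 5 weeks and in 0.823% at 1 week. The genes named at 1 week were Tufm (r = 0.92), Nup50 (0.92), Sap30bp (0.89), Pias4 (0.88) and Arid5a (0.87).

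Of the further immediate early genes, 3 of 36 (8.33%) had an r above 0.7 with this mean at 1 week, where 0.823% of all genes did. The counts were 3 of 19 feedback inhibitors, 1 of 18 late response genes and 0 of 27 upstream kinases and factors. The shared order of the 5 lowest retinas at 5 weeks was found in 7 of the 35 further immediate early genes, which, named after their values had been seen, were Btg2, Ccn1, Ccn2, Dusp1, Gadd45b, Mcl1 and Plk2. Dusp1 is in both the list of further immediate early genes and that of feedback inhibitors, and it was at 25.4 ± 7.97 CPM in bTBI retinas and 18.4 ± 9.04 CPM in sham retinas at 5 weeks (SD, n = 6 each), with a spread ratio of 5.21.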

How the data were processed

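RNA-Seq of single retinas was read from the tables of gene values that the authors deposited for each timepoint. Per the methods and the values, each deposited signal value is a gene's read count over the effective size of that library, on the scale of CPM. The authors had left out genes with few reads. The submitters' processing notes name STAR, edgeR and build mm10. In each retina 100% of values were whole multiples of 1 step to within 0.01 of it, and depth was taken as the sum of the values over this step. The tables were scaled separately and tested separately.

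Gene symbols came from GENCODE M21 by Ensembl ID without version, and 14907 and 15902 IDs matched. Values were compared as log2(value + 1) with limma 3.58.1 in R 4.3.3 (trend=TRUE, robust=FALSE), bTBI over sham. Simulated reads for the real genes were used to check the fit. Of genes changed 1.5-fold, 67% were recovered at 1 week and 76% at 5 weeks, and of genes changed 2-fold 100%. The simulation gave all genes the same variability setting and changed only genes above a set level. It therefore does not cover genes with wide spread, such as Egr1, Fos and Nr4a1, or genes with low levels. Correlations were tested by all 518400 orders within groups. Markers and lists are means of log2(value + 1). Named were all measured genes of the set, the 2 genes with the lowest p of each further list of the response, and the 5 genes most like the set's mean with a mean log2 level of at least 1.

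The genes and lists were chosen with earlier results of these data known. Alternatives were other scalings, pseudocounts of 0.1 and 0.5, a filter on low values, other priors, a replicate block, a single fit of 24 retinas, a threshold of 0.05 and each retina left out.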

Additional observations from a re-analysis of the deposited data

Results flagged for a closer look

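In 3 of the 32 groups of 6 retinas examined (16 gene and timepoint combinations with 2 groups each), 1 retina lay far from the other 5 of its group. For normally distributed values, chance alone gives about 1 in 20 groups. The groups share their retinas and are not independent, so that the count was not tested against chance. The distance was judged on the log2(CPM + 1) scale, as the gap to the nearest retina divided by the range of the group. Egr1 in bTBI replicate 5 at 5 weeks was at 8.25 CPM, with a gap of 0.647 of the range, and Fos in the same retina was at 10.2 CPM, with a gap of 0.662 of the range. Ier2 in sham replicate 2 at 1 week was at 15.7 CPM, with a gap of 0.660 of the range. The levels of Egr1 and Fos in bTBI replicate 5 were within the range of the 4 low sham retinas of that timepoint.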

How the results depend on the processing

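No immediate early gene passed an adjusted p under 0.005 under any alternative that was run at either timepoint. With a threshold of 0.05 the count at 1 week was 1 (Fosb, log2 fold change 0.45) and that of all genes was 907 at 1 week, 326 at 5 weeks and 111 for the difference of the effects. The count of all genes at 1 week, 336, was 685 in a single fit of all 24 retinas, 112 without bTBI replicates 5 and 6, 128 without bTBI replicates 3 and 4, 1 without bTBI replicates 3 to 6, and 189 (without sham replicate 2) to 486 when each retina was left out. At 5 weeks the count of 133 was 56 with a prior without trend, 75 in the single fit and 88 (without sham replicate 2) to 163 when each retina was left out. For the difference of the effects, the count of 15 was 9 to 111 when each retina was left out.

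Small fold changes turned their sign when single retinas were left out, from -0.061 to 0.11 for Arc and -0.071 to 0.26 for Fos at 1 week, from -0.041 to 0.17 for Arc and -0.0053 to 0.14 for Fosb at 5 weeks, and from -0.16 to 0.061 for Arc and -0.17 to 0.086 for Ier2 in the difference of the effects. The cause was not tested. Fos at 1 week was also at -0.12 without bTBI replicates 3 and 4 together and at -0.014 without bTBI replicates 3 to 6, alternatives chosen after seeing the data. The remaining alternatives turned no sign of these genes. The number of genes correlated with Fos at 1 week at an adjusted p under 0.05, 3 of 6, was 2 with Spearman's rho and 2 to 4 when each retina was left out.

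With the replicate number as a block, 293 genes were called at 1 week and 134 at 5 weeks, and no immediate early gene. At 1 week the adjusted p with the block was 0.0924 for Fosb, 0.0737 for Junb and 0.142 for Egr1 (limma). Without the block it was 0.0391, 0.0656 and 0.267. At 5 weeks it fell with the block from 0.489 to 0.189 for Egr1 and from 0.563 to 0.329 for Fos (limma). Over all genes, same-numbered bTBI and sham retinas had correlations of -0.25 to 0.54 (1 week) and -0.11 to 0.15 (5 weeks). Most bTBI retinas did not correlate best with the sham retina of their own number. The labels give no pairing beyond the number, and a handling shared by same-numbered retinas was not tested. The planned edgeR and DESeq2 fits on recovered reads were not run. The spread between 6 retinas limits the test, most of all for Egr1 at 5 weeks, where the interval of the log2 fold change spans 0.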
